A study of Ovis aries with 16 samples.

Results

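TTR, IGF2, IGFBP2 and AQP1, 4 genes known for high levels in the choroid plexus, were followed fetus by fetus in the frontal cerebral cortex of fetal sheep. They were chosen by name, from the gene name or transcript printed for each probe of the array, and were read by 7 of the 15008 probes (4 of the 1025 genes that could be named). RNA of 16 late gestation fetuses was measured, 1 fetus per one-colour Agilent sheep array. In the normoxia control group (n = 3) the ewe breathed normally for the 30 min of the stimulus and no ketamine was given. The normoxia + ketamine group (n = 4) had the same normoxia after 3 mg/kg of ketamine, given intravenously to the fetus. Ketamine is an antagonist of the NMDA type of glutamate receptor. In the hypoxia control group (n = 5) oxygen in the gas breathed by the ewe was lowered for 30 min without ketamine, and the hypoxia + ketamine group (n = 4) had the same hypoxia after 3 mg/kg of ketamine. All fetuses carried catheters from earlier surgery, all recovered in normoxia for 23.5 h, and the cortex was taken 24 h after the onset of the stimulus. Most fetuses were twins by the study's methods, and the labels do not say which shared a ewe, so P values measure the spread between fetuses without regard to litter.

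The choroid plexus is a folded epithelium inside the brain ventricles that secretes cerebrospinal fluid, and the meninges are the fibroblast-rich membranes over the brain surface. TTR (transthyretin) carries thyroid hormone and retinol-binding protein, and within the brain it is made chiefly by choroid plexus epithelium. IGF2, a growth factor of the insulin family, and IGFBP2, a secreted protein that binds it, are made by choroid plexus and by meninges, and AQP1 is a water channel of the choroid plexus surface facing the ventricle that is also found in red blood cells and in endothelium outside the brain. In RNA from a whole piece of cortex, fewer cells of a type and less RNA per cell cannot be told apart.

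The probes of 3 of the genes are shown because their positions decide what each could read. AQP1 was read by 2 probes of 60 bases that share 59 bases, and the one starting at base 763 of the transcript ends exactly on the stop codon, in capitals. IGF2 was read by a probe at base 583, inside the coding sequence, and by another at base 1147, past it, of which the first 30 bases are shown. IGFBP2 was read by 2 probes at bases 1307 and 1308, which also share 59 bases, and the last 30 bases of the first are shown with AATAAA, the polyadenylation signal, in capitals. Sequences are those in the array files, 5′ to 3′ on the transcript strand.
AQP1 at base 763: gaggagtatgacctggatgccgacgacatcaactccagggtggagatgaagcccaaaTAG
IGF2 at base 583: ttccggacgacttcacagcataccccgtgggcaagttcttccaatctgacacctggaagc
IGF2 at base 1147: ctgaaatgaattggctttttagcaacacca
IGFBP2 at base 1307: gcttaagattaaaggaaggaaaAATAAAaa
TTR was read by 1 probe, at base 468 of its transcript. The 2 IGF2 probes, which share no bases, correlated at r = 0.98 over the 16 arrays, and the 2 IGFBP2 probes at r = 0.97. The 2 AQP1 probes correlated at r = 0.10. The probe with the highest mean stands for its gene below, which is base 1147 for IGF2, base 1307 for IGFBP2 and base 763 for AQP1.

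On each array 69.2 to 76.9% of spots were well above background, and precision is limited by how many arrays there were. The 16 arrays filled 2 slides of 8, and each group was on both: normoxia control replicates 1 and 2 were on slide 1 and replicate 3 on slide 2. The labels of hypoxia control replicate 1 conflict, since the title names it a hypoxia control, the reading followed below, whereas source name and characteristics give normoxia with ketamine. Neurons' GRIA2, a glutamate receptor subunit, and NPY, a neuropeptide, were well above background on all 16 arrays, as were all 7 of the neuronal genes that could be named. Levels below are normalized log2 intensities, comparable between fetuses for a probe and not between probes.

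TTR was the most variable of the 14876 probes measured on every array. Its standard deviation over the 16 fetuses was 2.72 on the log2 scale, and its within-group standard deviation of 2.47 was also the largest on the array, where the median probe had 0.13. In normoxia control TTR stood at 16.00, 15.55 and 9.33. In normoxia + ketamine it stood at 8.42, 12.83, 9.31 and 10.19. The first 2 normoxia control fetuses were above every other fetus, and the third lay at the level of normoxia + ketamine replicate 3. In hypoxia control TTR stood at 7.91, 11.56, 6.78, 8.85 and 11.52. In hypoxia + ketamine it stood at 12.82, 7.93, 8.38 and 11.10. Each group held fetuses with high and with low TTR, and all 4 groups overlapped. Before normalization the spot ran from a mean signal of 55.2 in hypoxia control replicate 3, where TTR was not well above background, to 65531 in normoxia control replicate 1, where it was saturated, so both ends of the range are bounds.

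**Figure D1:**
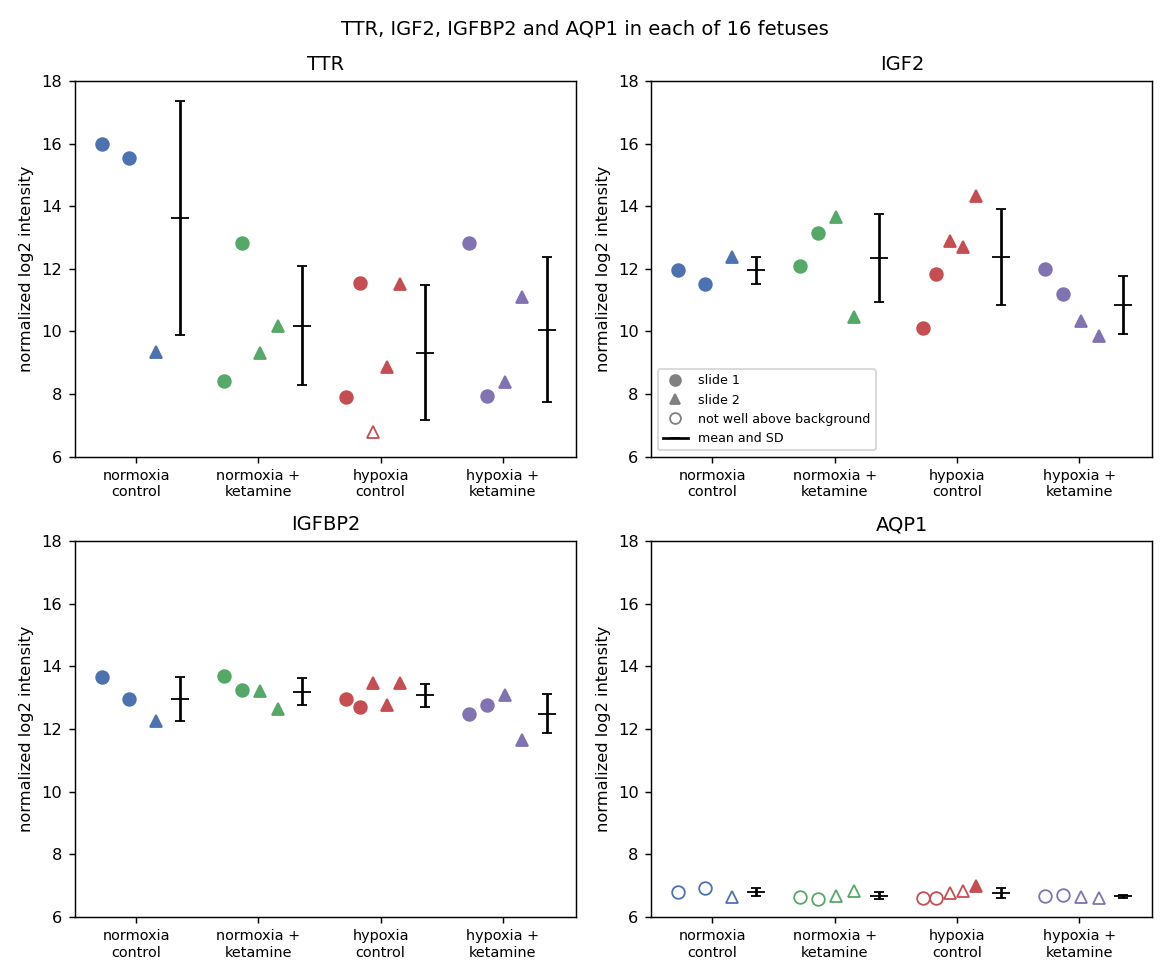
Normalized log2 intensity (y axis, the same scale in each panel) of TTR, IGF2, IGFBP2 and AQP1 in the 16 fetuses by group (x axis), with circles for slide 1, triangles for slide 2, open symbols for arrays on which the probe was not well above background, and bars for the mean and SD of the group. TTR spread from 6.78 to 16.00 and overlapped between all groups, and AQP1 was well above background on 1 array.

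Ordered by TTR, normoxia control replicates 1 and 2 came first. A middle set of normoxia + ketamine replicate 2 (12.83), hypoxia + ketamine replicate 1 (12.82), hypoxia control replicates 2 and 5 (11.56 and 11.52) and hypoxia + ketamine replicate 4 (11.10) followed. The lowest 3 values were those of hypoxia control replicate 3 (6.78), hypoxia control replicate 1 (7.91) and hypoxia + ketamine replicate 2 (7.93). With 1 array per fetus, neighbours in this order could not be tested against each other. All values above 11.52 were on slide 1, which also held the 7.91 and 7.93. TTR averaged 11.63 (SD 3.28, n = 8) on slide 1 and 9.43 (SD 1.52, n = 8) on slide 2.

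IGF2 was well above background in every fetus and varied over 4.47 on the log2 scale. In normoxia control it stood at 11.97, 11.51 and 12.36, the narrowest group. In normoxia + ketamine it stood at 12.08, 13.13, 13.66 and 10.46. In hypoxia control IGF2 stood at 10.12, 11.84, 12.88, 12.70 and 14.33, and this group held the highest fetus of the 16. In hypoxia + ketamine it stood at 11.98, 11.18, 10.34 and 9.85, which includes the lowest fetus, and all groups overlapped. The within-group standard deviation of IGF2 was 1.24, rank 37 of the 14876 probes. The fetuses with the highest TTR were not those with the highest IGF2: normoxia control replicates 1 and 2 were near the middle for IGF2, and hypoxia control replicate 3, lowest for TTR, stood at 12.88.

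IGFBP2 was a bright gene with a smaller spread, 0.52 within groups (rank 285). In normoxia control IGFBP2 stood at 13.65, 12.96 and 12.27. In normoxia + ketamine it stood at 13.69, 13.24, 13.21 and 12.63. In hypoxia control IGFBP2 stood at 12.97, 12.71, 13.46, 12.76 and 13.46. In hypoxia + ketamine it stood at 12.49, 12.76, 13.08 and 11.65, and replicate 4 of that group was the lowest of the 16 for IGFBP2 as for IGF2.

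AQP1 was near background. The probe ending on the stop codon was well above background on 1 of 16 arrays, hypoxia control replicate 5, and the probe shifted by 1 base was so on 0. The former lay between 6.58 and 6.98 over all fetuses, including 6.79 and 6.91 in the normoxia control fetuses with the highest TTR. No fold change or test is given for AQP1, because its level is a bound in nearly every fetus, and the counts of called members below are of the other 3.

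The response to hypoxia without ketamine was examined by comparing hypoxia control with normoxia control. TTR was lower after hypoxia, 9.32 ± 2.15 (SD, n = 5) against 13.62 ± 3.73 (SD, n = 3), a log2 change of -4.30 (SE 1.64), and IGF2 and IGFBP2 were not called. The TTR change is that of the measured values, in which 1 of the 3 normoxia control arrays was saturated and 1 of the 5 hypoxia control arrays was not well above background. TTR was the 1 called of the 3 members with a usable level, that is with an unadjusted P under 0.05 in limma's moderated test, against 7.98% of all probes. Its adjusted P was 0.538 (limma), and 0 probes of the array passed adjustment by limma in any of the comparisons. An exact two-sided permutation of the 8 fetuses gave P = 0.107 for TTR, where the smallest possible was 0.0357. The call was lost without either of 2 fetuses: the change was -3.11 without normoxia control replicate 1 and -3.34 without normoxia control replicate 2. It was -6.04 within slide 1, which held both of these fetuses, and -0.28 within slide 2, where normoxia control is 1 fetus, so that this value and the others within slide 2 against normoxia control have no spread of their own in that group. The log2 change of IGF2 was 0.42 (SE 0.82, exact permutation P = 0.643), -0.76 within slide 1 and 0.94 within slide 2. The log2 change of IGFBP2 was 0.11 (SE 0.34, exact permutation P = 0.75), -0.46 within slide 1 and 0.96 within slide 2.

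**Figure D2:**
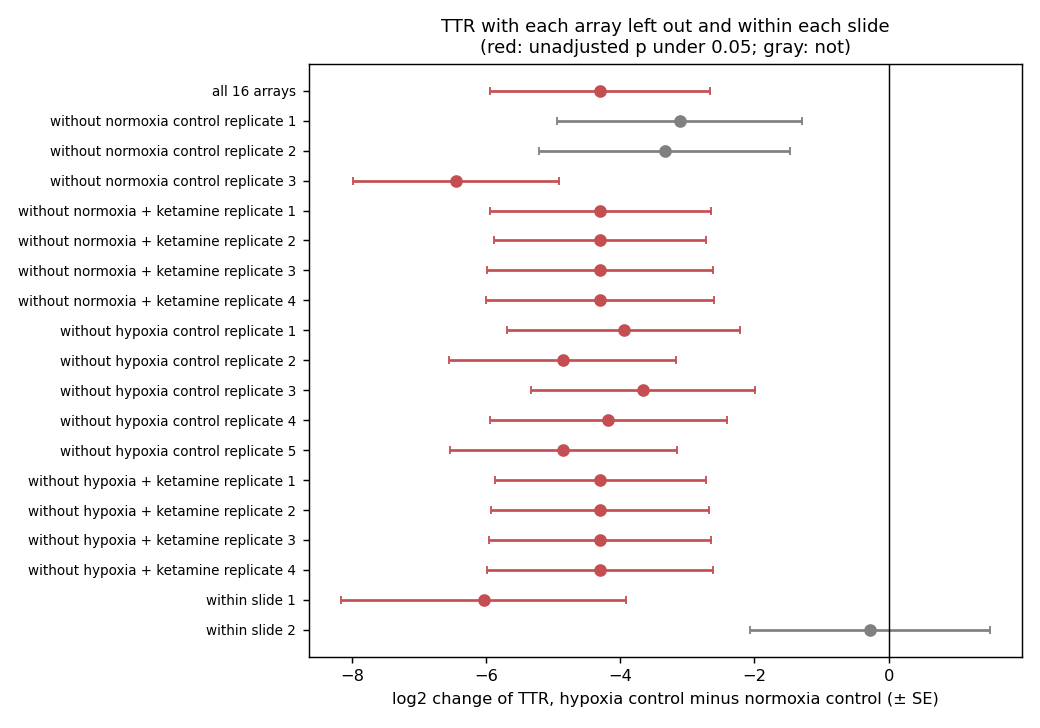
Log2 change of TTR between hypoxia control and normoxia control (x axis, with SE) with all 16 arrays, with each array left out, and within each slide (y axis), red where limma's unadjusted P was under 0.05. The change lay between -6.45 and -3.11 with an array left out and was -0.28 within slide 2.

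Ketamine in normoxia was compared to normoxia control, with the same 3 control fetuses, and 0 of the 3 members with a usable level were called, against 2.31% of all probes. TTR was 10.19 ± 1.91 (SD, n = 4) after ketamine, a log2 change of -3.44 (SE 1.71), and the exact permutation test gave P = 0.171, where the smallest possible was 0.0571. It was -5.15 within slide 1 and 0.42 within slide 2. TTR passed the call threshold once hypoxia control replicate 1 was counted as a ketamine fetus (-3.89), without normoxia control replicate 3 (-5.59), without normoxia + ketamine replicate 2 (-4.32) and within slide 1. The log2 change of IGF2 was 0.39 (SE 0.86, exact permutation P = 0.686), 0.87 within slide 1 and -0.30 within slide 2. The log2 change of IGFBP2 was 0.23 (SE 0.36, exact permutation P = 0.629), 0.16 within slide 1 and 0.65 within slide 2.

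Ketamine before hypoxia was compared to hypoxia alone, and 0 of the 3 members with a usable level were called, against 9.06% of all probes. IGF2 was 10.84 ± 0.94 (SD, n = 4) in hypoxia + ketamine and 12.37 ± 1.54 (SD, n = 5) in hypoxia control, a log2 change of -1.53 (SE 0.76), with an exact permutation P of 0.143 (smallest possible 0.0159) and an adjusted P of 0.573 (limma). The coding probe of IGF2 gave -0.91 (SE 0.49, exact permutation P = 0.143). Within slide 1 the difference of IGF2 was 0.60, and within slide 2 it was -3.20 and called. IGF2 was also called without hypoxia control replicate 1 (-2.10), with that fetus placed in normoxia + ketamine (-2.10), without normoxia + ketamine replicate 4 (-1.53, the same estimate with a smaller pooled spread) and without hypoxia + ketamine replicate 1 (-1.91). IGFBP2 differed by -0.58 (SE 0.31, exact permutation P = 0.143), with -0.22 within slide 1 and -0.86 within slide 2, and was called without hypoxia + ketamine replicate 3 (-0.77). TTR differed by 0.73 (SE 1.50, exact permutation P = 0.571), with 0.64 and 0.69 within the slides.

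Hypoxia was also compared within ketamine, hypoxia + ketamine against normoxia + ketamine, and 0 of the 3 members with a usable level were called, against 6.86% of all probes. The log2 change of IGF2 was -1.50 (SE 0.80), -1.03 within slide 1 and -1.96 within slide 2, and it was called without normoxia + ketamine replicate 4 (-2.12), hypoxia control replicate 1 (-1.50) or hypoxia + ketamine replicate 1 (-1.88). IGFBP2 was 12.49 ± 0.61 (SD, n = 4) against 13.19 ± 0.43 (SD, n = 4), a log2 change of -0.70 (SE 0.33), -0.84 and called within slide 1 and -0.55 within slide 2. IGFBP2 was called without normoxia control replicate 1 or 3 (-0.70 in both), normoxia + ketamine replicate 4 (-0.88) or hypoxia + ketamine replicate 3 (-0.89). The exact permutation test gave P = 0.114 for IGF2 and P = 0.114 for IGFBP2, where the smallest possible was 0.0286. The log2 change of TTR was -0.13 (SE 1.58, exact permutation P = 0.857), -0.25 within slide 1 and -0.01 within slide 2. The interaction of ketamine with hypoxia called 0 of the same 3 members, against 6.35% of all probes, with 4.17 (SE 2.28) for TTR, -1.92 (SE 1.14) for IGF2 and -0.81 (SE 0.48) for IGFBP2. The TTR interaction was 5.79 within slide 1 and 0.27 within slide 2, and was called without normoxia control replicate 3 (6.32) or normoxia + ketamine replicate 2 (5.06). The IGF2 interaction was called without hypoxia control replicate 1 (-2.48) or normoxia + ketamine replicate 4 (-2.54), and that of IGFBP2 without normoxia control replicate 1 (-1.16).

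**Figure D3:**
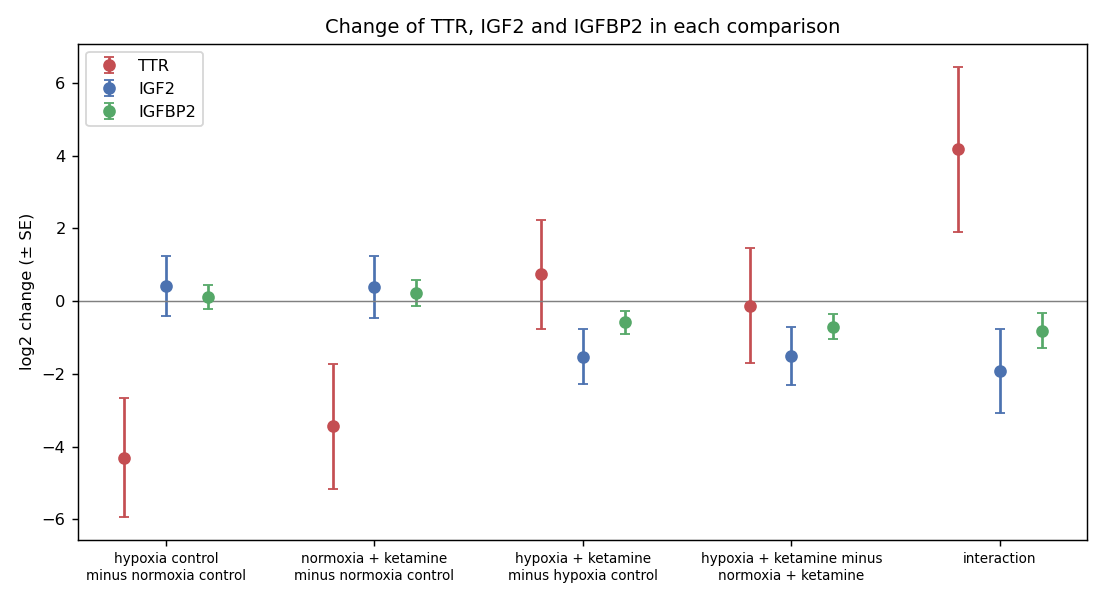
Log2 change with its SE (y axis) of TTR, IGF2 and IGFBP2 in each of the 4 comparisons and the interaction (x axis). TTR had the largest change, -4.30 in hypoxia control minus normoxia control, and IGF2 and IGFBP2 lay below 0 in both comparisons of hypoxia + ketamine.

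The members were then set against each other across the 16 fetuses, to see whether they marked the same fetuses. TTR with IGF2 gave r = 0.09 (permutation P = 0.731) and Spearman's rho = 0.12 (permutation P = 0.662). TTR with IGFBP2 gave r = 0.03 (permutation P = 0.914) and rho = -0.07 (permutation P = 0.788), so neither relation passed the test. Without the 2 fetuses with the most extreme TTR, r was 0.19 for TTR with IGF2 and -0.29 for TTR with IGFBP2. Within slides 1 and 2, r was 0.46 and -0.064 for TTR with IGF2, and 0.12 and -0.40 for TTR with IGFBP2. IGF2 with IGFBP2 gave r = 0.51 (permutation P = 0.0446, 0.134 after Benjamini-Hochberg adjustment over the 3 relations) and rho = 0.47 (permutation P = 0.0657, 0.197 adjusted). The r fell to 0.23 (permutation P = 0.42) without hypoxia control replicate 5 and hypoxia + ketamine replicate 4, the highest and the lowest for IGF2. It also missed the threshold with 1 fetus left out in 9 of 16 cases, which were normoxia control replicate 2, normoxia + ketamine replicates 2, 3 and 4, hypoxia control replicates 2, 3 and 5 and hypoxia + ketamine replicates 2 and 4. It was 0.34 after the group means were taken out, 0.29 within slide 1 and 0.66 within slide 2. The adjusted P over the 3 relations was 0.914 for TTR with either gene.

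Of 51 genes listed as choroid plexus epithelium, 12 could be named on the array, and the 8 that were not members gave 0 called in each of the 4 comparisons, with median log2 changes between -0.02 and 0.05, where 2.31 to 9.06% of all probes were called. The centred mean of CLDN3, ATP1B1, TF and BMP7, 4 of the 5 well above background in a whole group and a measure added after the data were seen, correlated with TTR at r = 0.31 (permutation P = 0.243, 0.606 adjusted over 30 relations of a member with the mean of a list; rho = 0.42, permutation P = 0.109). It correlated with IGF2 at r = 0.47 (permutation P = 0.0623, 0.478 adjusted; rho = 0.44, permutation P = 0.0932) and with IGFBP2 at r = 0.35 (permutation P = 0.191, 0.606 adjusted; rho = 0.31, permutation P = 0.246). With all 5 genes the unadjusted P of IGF2 fell below 0.05, and no adjusted P did. Within slides 1 and 2 the r was 0.53 and 0.20 for TTR, 0.38 and 0.54 for IGF2, and 0.21 and 0.50 for IGFBP2. The 4 genes did not count alike in this mean: TF spanned 11.16 to 14.54, CLDN3 8.27 to 9.39, BMP7 7.35 to 8.03 and ATP1B1, near the top of the scale in every fetus, 15.95 to 16.00, so that the mean followed TF most. Over all 5 genes the centred mean averaged 0.07 in normoxia control and 0.16 in normoxia + ketamine. It averaged -0.10 in hypoxia control and -0.09 in hypoxia + ketamine, and all groups overlapped. Among the 8, CLDN2, a claudin of the choroid plexus barrier, was well above background on 2 of 16 arrays, hypoxia control replicate 1 and hypoxia + ketamine replicate 1. CP (ceruloplasmin, a copper-carrying ferroxidase) was so on 1, hypoxia + ketamine replicate 1 at 7.40, a fetus in the middle set for TTR. Neither gene was well above background in normoxia control replicates 1 and 2, the fetuses with the most TTR. CLDN1, another claudin, was well above background on 10 of 16 arrays, among them those 2 fetuses at 7.21 and 7.10. Its highest value was 7.49, in hypoxia control replicate 2, and it stood at 7.19 and 7.26 in hypoxia + ketamine replicates 2 and 3, where TTR was low. TF (transferrin, an iron carrier also made by oligodendrocytes) stood at 13.04 and 13.91 in the same 2 fetuses, and at 13.70 and 14.54 in normoxia + ketamine replicates 1 and 3, where TTR was 8.42 and 9.31. It stood at 13.77 in hypoxia + ketamine replicate 1, where TTR was 12.82. The lowest TF, 11.16, was in hypoxia + ketamine replicate 2, where TTR was 7.93.

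IGF2 moved with the meningeal and perivascular fibroblast list. Of its 47 genes 18 could be named, the list mean was added after the data were seen, and 17 of these were well above background in at least 1 whole group. The centred mean of the 17 correlated with IGF2 at r = 0.86 (permutation P = 2e-05, 6e-04 adjusted over 30 relations) and rho = 0.83 (permutation P = 0.00015, 0.0045 adjusted). The relation was r = 0.84 (permutation P = 0.00225, 0.0337 adjusted) after group means were taken out, 0.83 without hypoxia control replicate 5 and hypoxia + ketamine replicate 4, 0.69 (exact permutation P = 0.0505, n = 8) within slide 1 and 0.90 (exact permutation P = 0.00221, n = 8) within slide 2. The list holds 3 binding proteins of the growth factor, and without them r was 0.88. Single genes of the list with the closest relation to IGF2 were DCN (decorin, a matrix proteoglycan, r = 0.73), BGN (biglycan, a related proteoglycan, r = 0.68) and COL1A2 (a chain of type I collagen, r = 0.65). The 17 did not count alike in the mean: the gene with the widest range spanned 9.42 to 12.30, DCN 11.29 to 12.74 and BGN 8.11 to 8.96. In all, 16 of the 17 had r above 0 with IGF2, the lowest of them 0.03, and 9 of the 17 with TTR. The share of all probes with r above 0 was not counted, so these counts have no background to be read against. TTR correlated with the same mean at r = 0.12 (permutation P = 0.669; rho = 0.21, permutation P = 0.444), and IGFBP2 at r = 0.40 (permutation P = 0.131, 0.62 adjusted; rho = 0.39, permutation P = 0.142).

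**Figure D4:**
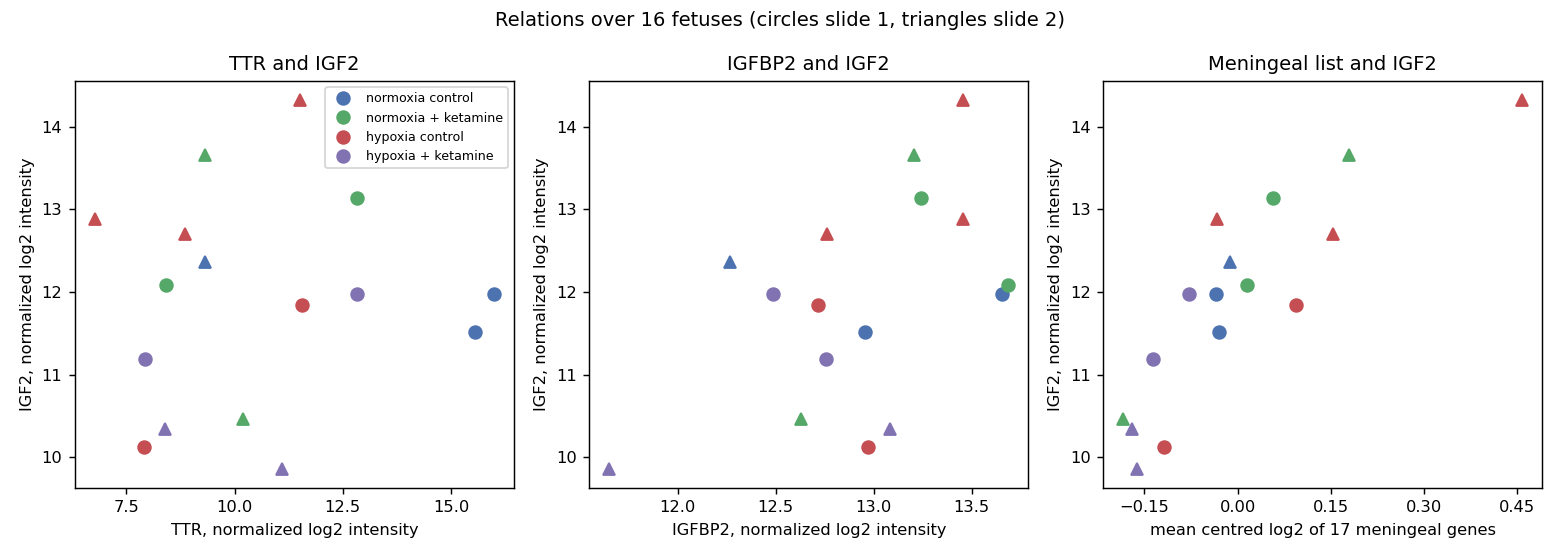
IGF2 (y axis, normalized log2 intensity) against TTR, IGFBP2 and the centred mean of 17 meningeal and perivascular genes (x axes, log2) in 16 fetuses, coloured by group, with circles for slide 1 and triangles for slide 2. IGF2 was higher where the meningeal mean was higher (r = 0.86) and showed r = 0.09 with TTR.

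Calls among the meningeal genes are counted here with no test of the list as a whole, and the list mean overlapped between hypoxia control (-0.12 to 0.46, the highest in replicate 5) and hypoxia + ketamine (-0.17 to -0.08). The overlap came from hypoxia control replicate 1 alone (-0.12), whose labels conflict, and the next lowest of that group was replicate 3 at -0.03. Between hypoxia + ketamine and hypoxia control 7 of its 18 genes were called lower and 0 called higher (median log2 change -0.22), while 3.56% of all probes were lower and 5.49% higher. Against normoxia + ketamine 3 were lower and 0 higher, with a median of -0.14 (3.74% of all probes lower, 3.12% higher). Between hypoxia control and normoxia control 4 were higher and 1 lower, with a median of 0.13 (3.34% of all probes higher, 4.64% lower), and between normoxia + ketamine and normoxia control 0 were higher and 1 lower (0.880% of all probes higher, 1.43% lower). Of the 1025 named genes, 69 were lower and 36 higher in the first of these 4 comparisons, and 38 and 28 in the second. In the third 43 were lower and 64 higher, and in the fourth 16 and 14. The interaction called 7 meningeal genes below 0 and 0 above (median -0.43), where 6.35% of all probes were called in either direction. DCN fell by 0.66 on the log2 scale (SE 0.21, limma adjusted P = 0.454) in hypoxia + ketamine against hypoxia control, where IGF2 differed by -1.53. TIMP3, an inhibitor of matrix proteases, fell by 0.78 (SE 0.18) in that comparison, and ANXA2, a membrane-binding protein, by 0.52 (SE 0.10). TIMP3 and ANXA2 rose by 0.60 (SE 0.20) and 0.39 (SE 0.11) in hypoxia control against normoxia control. Several genes of the list, such as VIM, TIMP1 and ANXA2, are also known in glia and vessels, and the part of meningeal tissue in these differences was not tested.

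Among all named genes above background on every array, those most like TTR were LGALS1 (galectin 1, r = 0.67), TXN (thioredoxin, r = 0.66), GRINA (r = 0.63), CAT-1 (r = 0.59) and CRHBP (a binding protein of corticotropin-releasing hormone, r = 0.58). After group means were taken out, r with TTR was 0.48 for LGALS1, 0.57 for TXN, 0.64 for GRINA, 0.59 for CAT-1 and 0.63 for CRHBP. LGALS1 lay between 12.05 and 12.85 over the 16 fetuses, a small range beside that of TTR. Those most like IGF2 were LOC100191035 (r = 0.81), the secreted bone morphogenetic proteins BMP6 (r = 0.79) and BMP4 (r = 0.76), TNFRSF11B (osteoprotegerin, r = 0.79) and DCN (r = 0.73). Among those most like IGFBP2 were SERPINF1 (pigment epithelium-derived factor, r = 0.92), CSNK1D (casein kinase 1 delta, r = 0.72), ATP5MC2 (a subunit of ATP synthase, r = 0.69) and PGD (an enzyme of the pentose phosphate pathway, r = 0.67). These r describe 16 fetuses and 643 or 644 genes ranked, which share arrays and normalization.

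Among named genes, SERPINF1 with IGFBP2 had the highest r of any with TTR, IGF2 or IGFBP2. This gene and LGALS1, the named gene most like TTR, are both on the meningeal and perivascular list. SERPINF1 was at 8.05, 8.27, 8.34 and 7.62 in hypoxia + ketamine and at 8.73, 8.59, 8.60 and 8.35 in normoxia + ketamine, so that the highest of the former and the lowest of the latter nearly met. Its log2 change between them was -0.50 (SE 0.14, limma adjusted P = 0.483), beside -0.70 for IGFBP2. After group means were taken out, SERPINF1 and IGFBP2 still correlated at r = 0.93.

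Of 29 genes listed as the insulin-like growth factor system 10 could be named, and the 8 besides the members gave 1 call in the 4 comparisons, IGFBP3, a binding protein, which was higher in hypoxia control than in normoxia control by 0.75 (SE 0.23), where 3.34% of all probes were higher. IGF1, the other ligand, and IGF1R, the receptor that both ligands bind, lay between 7.54 and 8.10 and between 8.13 and 8.79. IGF2 correlated with the centred mean of 7 genes of this list at r = 0.67 (permutation P = 0.00531, 0.0797 adjusted; rho = 0.64, permutation P = 0.00864), 0.80 after group means were taken out (permutation P = 0.00181, 0.0337 adjusted), 0.21 within slide 1 and 0.82 within slide 2, and 3 of those genes are also on the meningeal list. The 14 non-member genes named for aquaporins, ion and water transport gave 1 call, AQP2, higher by 0.16 (SE 0.05) in hypoxia + ketamine than in hypoxia control, where 5.49% of all probes were higher, so that 1 call in 14 genes is near the background. AQP4, the water channel of astrocytes, was well above background on all 16 arrays with a mean of 15.43, whereas AQP1 was not. The 6 non-member genes named for thyroid hormone and retinol carriers gave 0 calls in the 4 comparisons, and SERPINA7, thyroxine-binding globulin, was well above background on 0 arrays.

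Markers of other cell types moved with some of the same comparisons. In hypoxia control against normoxia control, where TTR was lower, 4 of 8 microglia and macrophage genes were higher and 0 lower, against 3.34% of all probes higher and 4.64% lower. Of the 1025 named genes, 64 were higher and 43 lower, and the other comparisons are counted above with the meningeal genes. The median log2 change of the 8 microglia and macrophage genes was 0.48. The list's centred mean held the 5 genes that were well above background in at least 1 whole group. It lay between -0.13 and 0.75 in hypoxia control and between -0.30 and -0.19 in normoxia control. A gene could pass that filter through the group in which it was high, so these ranges are no test between the groups. In the same comparison 1 of 4 astrocyte genes was higher (GFAP), 1 of 4 red blood cell genes was higher (AHSP, which stabilizes alpha globin), 2 of 13 endothelial genes were higher (SELP and ICAM1, adhesion molecules of activated vessels) and 2 lower (OCLN and NOS3), and 0 of 7 neuronal genes were called. In hypoxia + ketamine against hypoxia control 3 microglia and macrophage genes, 1 astrocyte gene and 2 endothelial genes were lower, 1 endothelial gene was higher, and 0 red blood cell or neuronal genes were called (3.56% of all probes lower, 5.49% higher). Normoxia + ketamine against normoxia control gave 0 calls in these 5 lists (2.31% of all probes). Hypoxia + ketamine against normoxia + ketamine gave 2 lower neuronal genes (GRIN1 and NPY) and 0 in the other 4 (3.74% of all probes lower, 3.12% higher). TTR correlated with the microglia and macrophage mean at r = -0.39 (permutation P = 0.134, 0.62 adjusted; rho = -0.52, permutation P = 0.0399, 0.399 adjusted), and at r = -0.37 and -0.72 within slides 1 and 2. After group means were taken out, r was -0.16 (permutation P = 0.589) and rho was -0.27 (permutation P = 0.329). The red blood cell mean lay between -0.51 and 0.71 over all fetuses and correlated with IGF2 at r = 0.47 (permutation P = 0.0637, 0.478 adjusted; rho = 0.41, permutation P = 0.116). The part of these cell types in the levels of TTR, IGF2 and IGFBP2 was not tested, and of the ependymal and the oligodendrocyte lists 0 genes could be named.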

How the data were processed

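RNA of 16 fetuses was labelled with cyanine 3 and hybridized by the authors to 1-colour arrays, and the deposited files hold each spot's intensity from Feature Extraction 10.1.1.1, per the file headers, before normalization. The authors' deposited table of log2 values, background-corrected and quantile normalized (limma and R 2.15.1 per the submitters' processing notes), was an alternative only. In R 4.3.3 with limma 3.58.1, normexp (offset 50) was applied to the mean signal and median local background. This offset shrinks fold changes of dim probes. The 536 control spots of each array and 222 outlier spots, counted over all arrays, were then removed. Arrays were quantile normalized after that, and replicate spots were averaged within each probe. Linear models with empirical Bayes moderation were fitted to all 15008 probes over the 4 groups, with genes called at the study's own threshold, P under 0.05 before adjustment, and Benjamini-Hochberg adjustment over all probes. No dim-probe filter was used. Any pair of arrays correlated between 0.984 and 0.996.

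Exact permutation tests over fetuses were two-sided, and relations between genes used 100000 permutations. AQP1 was left out of these relations because it was near background. The members and the 12 gene lists were chosen with earlier results of these data known, and list means were added after seeing the data. List means held the genes well above background in every fetus of at least 1 group. A gene could pass this filter through the group in which it was high, so group differences of a list mean are descriptions. Named genes were the members with every probe, the 5 named genes most like each member (dropped for AQP1, a departure from the rule because it was near background), and up to 4 genes of a list, those called in most comparisons and then the brightest, besides markers, or genes called or correlated, chosen after their values were seen. The fit was tested on simulated data. Alternatives were other background corrections and scalings, a dim filter, slide or replicate as a block, only the compared groups, the authors' values, hypoxia control replicate 1 under its other label, weighted arrays, adjusted calls and each array left out. A few results that meet the rule for named genes are not reported here.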

Additional observations from a re-analysis of the deposited data

How the results depend on the processing

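Of 447 recomputed changes of TTR, IGF2 and IGFBP2, 400 kept their direction and their side of the threshold, as did 67 of 89 recomputed correlations. The causes of the other differences were not tested. TTR in hypoxia control minus normoxia control was -0.28 within slide 2, which holds 1 normoxia control fetus, assumed to vary like the other groups, and was not called after Benjamini-Hochberg adjustment (-4.30, adjusted P = 0.538). TTR in normoxia + ketamine minus normoxia control was -3.89 with hypoxia control replicate 1 moved to normoxia + ketamine, -5.15 within slide 1 (both past the threshold) and 0.42 within slide 2. TTR in hypoxia + ketamine minus normoxia + ketamine was 0.19 with normexp values scaled to the 75th percentile and 0.33 with hypoxia control replicate 1 moved. IGF2 was -0.76 within slide 1 in hypoxia control minus normoxia control, and in normoxia + ketamine minus normoxia control -0.057 with that fetus moved and -0.30 within slide 2. In hypoxia + ketamine minus hypoxia control IGF2 was -2.10 with that fetus moved, 0.60 within slide 1 and -3.20 within slide 2. IGFBP2 was -0.46 within slide 1 in hypoxia control minus normoxia control, and in hypoxia + ketamine minus normoxia + ketamine it passed the threshold at -0.79 with normexp values scaled to the 75th percentile and at -0.84 within slide 1.

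The labels do not say whether the replicate numbers pair the fetuses. Deviations from group means of same-numbered arrays correlated between -0.11 and 0.37 over 21 pairs. Their median was 0.044, against -0.022 for arrays of other numbers, and these values cannot show whether same-numbered fetuses shared a ewe. With the replicate number as a block, TTR passed the threshold in normoxia + ketamine minus normoxia control (-3.56) and in the interaction (4.84), and IGFBP2 in hypoxia + ketamine minus normoxia + ketamine (-0.70), and the block changed no other call.

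With each array left out, TTR ranged from -6.45 to -3.11 in hypoxia control minus normoxia control, -5.59 to -2.25 in normoxia + ketamine minus normoxia control, -0.19 to 1.44 in hypoxia + ketamine minus hypoxia control, -1.05 to 0.75 in hypoxia + ketamine minus normoxia + ketamine and 2.98 to 6.32 for the interaction. In the same order IGF2 ranged from -0.064 to 0.99, -0.056 to 1.01, -2.10 to -1.05, -2.12 to -1.05 and -2.54 to -1.43. IGFBP2 ranged from -0.23 to 0.46, -0.11 to 0.58, -0.77 to -0.30, -0.89 to -0.42 and -1.16 to -0.46.

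TTR with IGF2 gave r = -0.064 within slide 2. TTR with IGFBP2 gave r = -0.045 on processed signals scaled to the 75th percentile, -0.29 without the 2 fetuses farthest from the median and -0.40 within slide 2. IGF2 with IGFBP2 lost its call after subtracting group means (0.34), without the 2 farthest fetuses (0.23), within slide 1 (0.29) and slide 2 (0.66), and in 9 of 16 fits with 1 array left out, and IGF2 with the meningeal mean lost its call within slide 1 (0.69). With each array left out, r ranged from -0.0019 to 0.18 for TTR with IGF2, -0.21 to 0.14 for TTR with IGFBP2, 0.34 to 0.57 for IGF2 with IGFBP2 and 0.84 to 0.89 for IGF2 with the meningeal mean. Signal limits AQP1 (1 of 16 arrays above background) and both ends of TTR.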

Other observations

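Probes other than those that stand for a named gene followed some members more closely than any that do. They may include further probes of named genes. For TTR 22 of the 9964 probes ranked had a higher r than LGALS1, up to 0.82, and for IGF2 17 of 9962 had a higher r than LOC100191035, up to 0.95. For IGFBP2 0 of 9962 had a higher r than SERPINF1. These values are descriptions over 16 fetuses, and the probes are not named here.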
